A study of Mus musculus with 2 samples.

Results

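The genes described here are the Dlx genes of the GABAergic lineages of the telencephalon and 2 genes that work beside them. They are Dlx1, Dlx2, Dlx5, Dlx6, the antisense transcript Dlx6os1 and Sp9, and they make up 6 of the 27998 genes listed in the files. They were chosen by name as the known transcription factor set of forebrain inhibitory neurons, and their UMIs (unique molecular identifiers, which count captured RNA molecules) were read across GABAergic cell groups and in cycling cells. The study prepared 2 single-cell RNA libraries with the 10x Genomics droplet kit from telencephalic tissue of C57BL/6 mice at postnatal day 0, 1 library for each genotype. The labels call the tissue telencephalic while the study's methods speak of dissected cerebral cortex, and cells like striatal and olfactory bulb neurons were present, so how much of each region entered a library is not known. The first library carries the genotype label WT, and the study's text names floxed mice as its control. The other is labelled STINGf/f;Nestin-Cre and is called cKO here. In cKO the floxed gene for STING, a sensor adaptor of innate immunity, is cut by a Cre recombinase that the Nestin promoter drives in neural progenitors and therefore in their progeny. Sources used here do not state how many animals entered each library. With 1 library for each genotype no difference between genotypes could be tested, and all intervals given below are 95% intervals that cover counting error only.

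Dlx proteins are homeodomain transcription factors that switch on the inhibitory program in progenitors of the ganglionic eminences, the embryonic structures below the cortex. Dlx1 and Dlx2 act early, in dividing progenitors and in the neurons that leave them. Dlx5 and Dlx6 follow in young neurons under the control of enhancers between the genes of the pair. Dlx6os1 is a long noncoding RNA transcribed from the Dlx5 and Dlx6 interval, and Sp9 is a zinc-finger factor needed for striatal neurons of the indirect pathway and for several interneuron classes.

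The genes lie in tight pairs. In GENCODE coordinates on GRCm38, Dlx1 occupies chr2:71528113-71533981 on the plus strand, Dlx2 lies 9.43 kb further on at chr2:71543408-71546754 on the minus strand, and Sp9 lies on the same chromosome at chr2:73271925-73284706 on the plus strand. Dlx6 (chr6:6863334-6868568, plus strand) and Dlx5 (chr6:6877805-6882085, minus strand) are 9.24 kb apart. Dlx6os1 (chr6:6820189-6871592, minus strand) spans the whole of Dlx6 on the opposite strand but shares 0 exon bases with it. Dlx1 shares 335 of its 5396 exon bases with the antisense gene Dlx1as, and Sp9 shares 270 of 5044 with Cir1. Whether counting used strand is not given in the sources used here, so reads from those shared bases cannot be assigned with certainty.

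The promoter windows of Dlx1, Dlx2 and Sp9, and those of Dlx6os1, whose level departs most from theirs between the genotypes, show how unlike the RefSeq starts of these genes are in sequence. They run from 250 bases before to 50 after the start annotated by RefSeq on GRCm38.p6, 5′ to 3′ on the strand of the gene. The windows of Dlx1 and Dlx6os1 lie inside the GENCODE spans given above and not at their 5′ ends, so these are internal starts of the GENCODE genes. Capitals mark TAATTA, the core letters that many homeodomain proteins recognise, and GGGCGG or its complement CCGCCC, the letters of the GC box to which Sp proteins bind.
Dlx1, chr2:71529195-71529494, plus strand: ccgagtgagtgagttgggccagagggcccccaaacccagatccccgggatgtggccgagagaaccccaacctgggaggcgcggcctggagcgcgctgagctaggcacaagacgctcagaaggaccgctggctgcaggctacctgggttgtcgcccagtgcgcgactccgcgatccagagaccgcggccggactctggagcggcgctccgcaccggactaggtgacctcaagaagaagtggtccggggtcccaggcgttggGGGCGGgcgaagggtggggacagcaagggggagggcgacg
Dlx2, chr2:71546705-71547004, minus strand: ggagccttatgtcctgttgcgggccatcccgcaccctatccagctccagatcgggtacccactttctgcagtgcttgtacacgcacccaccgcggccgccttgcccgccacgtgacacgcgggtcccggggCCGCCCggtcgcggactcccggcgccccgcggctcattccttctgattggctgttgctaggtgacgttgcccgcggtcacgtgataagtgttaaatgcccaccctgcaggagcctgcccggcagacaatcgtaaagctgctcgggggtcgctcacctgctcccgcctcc
Sp9, chr2:73271676-73271975, plus strand: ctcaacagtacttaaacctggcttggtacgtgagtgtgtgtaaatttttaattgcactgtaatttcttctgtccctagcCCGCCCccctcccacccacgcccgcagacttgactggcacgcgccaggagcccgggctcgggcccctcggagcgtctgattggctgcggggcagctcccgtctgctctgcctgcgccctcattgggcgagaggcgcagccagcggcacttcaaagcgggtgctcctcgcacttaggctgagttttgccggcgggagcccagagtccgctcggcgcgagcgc
Dlx6os1, chr6:6869484-6869783, minus strand: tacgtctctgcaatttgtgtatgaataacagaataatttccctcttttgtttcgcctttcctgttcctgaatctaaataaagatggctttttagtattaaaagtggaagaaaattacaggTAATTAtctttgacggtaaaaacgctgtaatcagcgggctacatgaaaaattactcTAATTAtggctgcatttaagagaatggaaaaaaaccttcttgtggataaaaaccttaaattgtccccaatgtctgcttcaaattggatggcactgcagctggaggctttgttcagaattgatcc
Dlx6os1, second start, chr6:6861634-6861933, minus strand: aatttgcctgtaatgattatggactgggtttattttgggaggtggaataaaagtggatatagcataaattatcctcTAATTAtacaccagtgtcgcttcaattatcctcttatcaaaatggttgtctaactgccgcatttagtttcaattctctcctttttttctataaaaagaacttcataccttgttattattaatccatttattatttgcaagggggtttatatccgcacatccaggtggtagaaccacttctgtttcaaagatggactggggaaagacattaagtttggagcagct
Dlx1, Dlx2 and Sp9 each held 1 GC box and no TAATTA, with a GC content of 69.3%, 66.3% and 63.7%. Both Dlx6os1 windows held TAATTA and no GC box, with 2 matches in the first window and 1 in the second, at a GC content of 35.7% and 35.3%. Among all 32817 RefSeq promoter windows of this length the median GC content was 52.7%, 5.30% held TAATTA and 35.6% held a GC box on either strand. These matches describe letters and not sites of binding. Windows for Dlx5 and Dlx6 were not used here.

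The libraries were alike in depth. WT held 69554624 UMIs in 10715 barcodes and cKO 67448785 in 9198, and 6601 and 5974 cells passed the filters with a median of 6552 and 7537 UMIs. Tmem173, the gene that encodes STING, had 126 UMIs over the WT cells and 18 over the cKO cells, in the direction of the labels, but 0 in the GABAergic cells of either library. The loss of the target could therefore not be read in the cells described here. Xist, the X-inactivation RNA, had 10 UMIs in WT and 71370 in cKO, while Y-linked genes had 9771 and 6, so the sex of the library and its genotype cannot be told apart. The libraries shared 19 barcodes, 8 of them among cells that were kept.

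GABAergic cells were set by UMIs of Gad1 and Gad2, which encode the enzymes of GABA synthesis, and none of the 6 members was used to group cells. A cell needed at least 2 such UMIs, and more than it had of Neurod2, Neurod6 and Eomes, which mark the excitatory lineage. This gave 1222 WT cells (18.5%) and 1193 cKO cells (20.0%). The gate genes themselves differed between the libraries in these cells, with 3380 UMIs of Gad2 in WT and 4802 in cKO, and 1953 and 1718 of Gad1. A gate of 4 UMIs kept 567 WT and 744 cKO cells. The part of these differences in the genotype values was not tested. Cells with at least 3 of 12 mitosis genes were called cycling, which gave 152 and 94 cycling GABAergic cells. The others were named from 6 markers for each class, 5 for the indirect pathway, with at least 2 detected. There were 161 WT and 268 cKO cells like interneurons of the medial ganglionic eminence (MGE-like), 103 and 186 like those of the caudal eminence (CGE-like) and 366 and 171 like neurons of the olfactory bulb (OB-like). Of striatal projection neurons, 51 and 48 cells were like those of the direct pathway (dSPN-like) and 74 and 52 like those of the indirect pathway (iSPN-like), and 315 and 374 GABAergic cells had no subtype.

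A group was named by its own markers, so their levels describe the group and do not test its name. Lhx6 is on the MGE list. A UMI of Lhx6, the defining factor of MGE interneurons, was found in 75.8% of WT and 85.1% of cKO MGE-like cells, against 0 to 7.45% of the other groups. The MGE markers differed in both directions between the libraries within these cells. Sst was at 3268 CPM in WT and 1307 in cKO, Npy at 4700.3 and 1949 and Sox6 at 148 and 57.1 (CPM scales the UMIs of a gene by the UMI total of the group to a common total). Maf stood at 436 and 590 CPM, Nxph1 at 369 and 429 and Lhx6 at 286 and 303. The part of these markers in the genotype values of MGE-like cells was not tested. In CGE-like cells Prox1 stood at 230.1 and 241 CPM and Nr2f2 at 338 and 536 CPM, but the MGE marker Maf was there as well, at 341 and 250.2 CPM. Of the other CGE markers, Npas1 was 380 CPM in WT and 212 in cKO, Adarb2 177 and 116, Vip 90.9 and 16.7 and Htr3a 88.3 and 137, and their part in the genotype values of CGE-like cells was not tested. OB-like cells had 252 and 193 CPM of Sp8, 359 and 304 of Tshz1, 312 and 139 of Etv1, 134 and 154 of Pax6, 88.8 and 29.4 of Prokr2 and 28.5 and 45.1 of Vax1, and the MGE marker Npy stood there at 262 and 14.7 CPM. In cycling GABAergic cells the olfactory bulb markers Pax6 (210.3 and 153 CPM), Etv1 (198 and 74.2), Sp8 (154 and 104) and Tshz1 (93.2 and 98.4) stood above every MGE marker. Vax1 was at 15.0 and 14.2 CPM and Prokr2 at 2.04 and 4.17. Of the MGE markers, Lhx6 was at 4.76 and 35.8 CPM, Npy at 12.9 and 55.8 and Sst at 12.3 and 35.8. Sox6 was at 71.5 and 23.3 CPM, Maf at 14.3 and 27.5 and Nxph1 at 10.9 and 9.17. The part of these marker differences in the genotype values of either group was not tested. In the dSPN-like cells Drd1, Tac1, Isl1, Ebf1 and Pdyn were present in both libraries while Chrm4 had 0 UMIs. In the iSPN-like cells the label rested on Penk (645 and 266 CPM in WT and cKO), Adora2a (325 and 170.1 CPM) and Six3 (569 and 436 CPM), since Drd2, the defining dopamine receptor, had 1 UMI in WT and 0 in cKO. The part of these lower marker levels in the genotype values of iSPN-like cells was not tested. The dSPN-like cells of WT also carried Sst, at 1508 CPM from 887 UMIs against 4.79 CPM in cKO, while the other 5 MGE markers had between 0 and 3 UMIs each in WT. The 6 endothelial markers summed to at most 33.5 CPM in any of the 7 groups.

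At least 1 of the 6 genes was detected in most cells of each GABAergic group except the direct-pathway neurons. After each cell was thinned to 2000 UMIs, at least 1 member was detected in 98.4% of WT and 97.0% of cKO OB-like cells, in 95.3% and 93.5% of cycling GABAergic cells and in 93.81% and 95.5% of CGE-like cells. MGE-like cells followed with 86.4% and 88.9%, those without a subtype with 84.7% and 86.6%, and iSPN-like cells with 74.3% and 69.2%. In dSPN-like cells the share was 49.0% in WT and 29.2% in cKO. Projection neuron-like cells, which should lack these genes, had a member in 5.99% and 3.49% at a median depth of 8025 and 8420 UMIs, and endothelial-like cells in 2.25% and 3.03% at 15155.5 and 14445, so every GABAergic group stood above the share found in these unrelated cells. The number of members per cell was also highest in OB-like and lowest in dSPN-like cells. At least 3 of the 6 were detected in 85.2% and 77.8% of OB-like cells and in 74.7% and 73.1% of cycling GABAergic cells. The shares were 50.5% and 53.6% in CGE-like cells, 44.6% and 44.3% in those without a subtype and 37.0% and 36.8% in MGE-like cells. They were 14.9% and 13.5% in iSPN-like cells and 4.08% and 0% in dSPN-like cells. The 0% stands for 0 of 48 cells and holds for cells with UMIs, not for cells that express the genes.

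**Figure D1:**
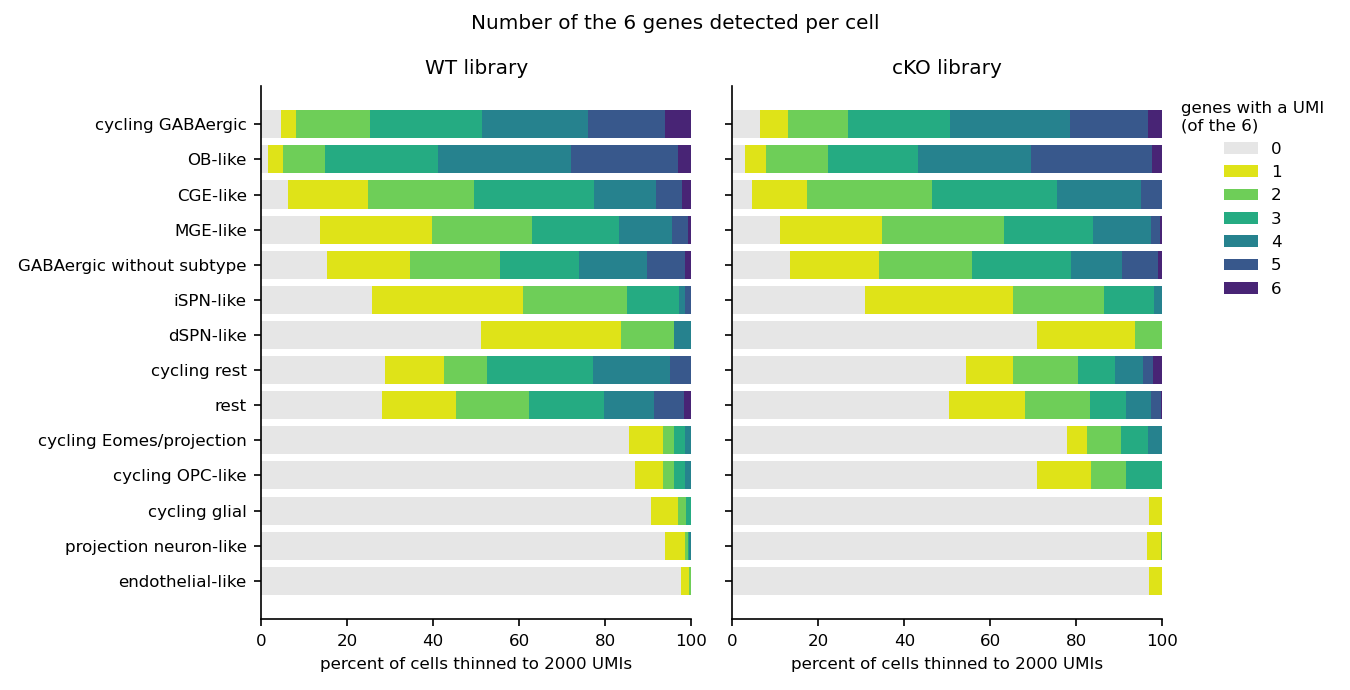
Share of cells (percent, horizontal axis, stacked bars) by the number of the 6 member genes with a UMI, after thinning each cell to 2000 UMIs, for each cell group in WT and cKO. OB-like and cycling GABAergic cells hold the most cells with 3 or more members, 85.2% and 74.7% in WT, and the projection neuron-like and endothelial-like cells hold almost only cells with none.

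Dlx1 and Dlx2, the early pair, were highest in OB-like and in dividing GABAergic cells and lowest in dSPN-like cells. Dlx1 stood at 804 CPM (95% interval 762 to 847, 1412 UMIs) in OB-like and at 728 CPM (685 to 773) in cycling GABAergic cells of WT, and at 812 and 878 CPM in cKO. The intervals of these groups overlapped in both libraries, with OB-like cells higher in WT and cycling GABAergic cells higher in cKO. The libraries thus shared no order of these groups. CGE-like cells came next with 480.2 CPM in WT and 645 in cKO, and MGE-like cells had 209 and 317 CPM. The striatal groups were far below, at 71.7 and 50.1 CPM in iSPN-like cells and 23.8 and 14.4 CPM in dSPN-like cells, the latter from 14 and 9 UMIs. After thinning, Dlx1 was found in 78.3% of WT OB-like and 4.08% of WT dSPN-like cells, against 1.97% of WT projection neuron-like cells, so its share in dSPN-like cells was not above background within its interval of 0.498% to 14.0%.

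Dlx2 kept a similar order. It stood at 778 and 844 CPM in cycling GABAergic cells and at 732 and 855 CPM in OB-like cells of WT and cKO. In MGE-like cells it had 257 CPM in WT (231 to 285) and 461 in cKO (433 to 491), and in CGE-like cells 352 (310.5 to 397) and 725 (675 to 777). The striatal groups had 63.4 and 105 CPM in iSPN-like and 32.3 and 25.5 CPM in dSPN-like cells. The UMIs of Dlx2 per UMI of Dlx1, a ratio that is compared here only between groups, stayed between 0.733 and 1.36 in the 7 WT groups. In cKO it was 0.961 in cycling GABAergic cells (0.881 to 1.05), 1.12 in CGE-like cells (1.01 to 1.25), where WT had 0.733 (0.622 to 0.861), and 2.09 in iSPN-like cells from 48 and 23 UMIs.

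The pair also met in the same cells. Among non-cycling GABAergic cells thinned to 2000 UMIs, Dlx2 was detected in 69.4% of the WT cells with Dlx1 and in 31.8% of those without it, and in 75.6% and 37.1% in cKO. These cells mix subtypes with unlike levels of both genes, so the shares describe cells of one library and are not a test of joint expression.

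Dlx5, which acts in young neurons after the early pair, was spread more evenly. It was highest in OB-like cells, at 369 CPM in WT (341 to 398) and 345 in cKO (309 to 385), and was 210.3 and 248 CPM in cycling GABAergic cells. In contrast to Dlx1 and Dlx2 it kept clear levels in the striatal groups, with 118 and 146 CPM in iSPN-like and 107 and 71.8 CPM in dSPN-like cells. Thus the UMIs of Dlx5 per UMI of Dlx2 were 0.270 in WT and 0.293 in cKO cycling GABAergic cells and 0.504 and 0.404 in OB-like cells, but 1.87 and 1.40 in iSPN-like and 3.32 and 2.81 in dSPN-like cells. In each library the striatal groups had the highest ratios. Their intervals overlapped in both libraries, with 1.96 to 5.87 in dSPN-like and 1.24 to 2.85 in iSPN-like cells of WT. Overlap of separate intervals does not settle the order of these striatal groups, and no interval was taken for their difference.

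Dlx6, the partner of Dlx5, varied less among the groups than the other members. Its level lay between 44.1 CPM in CGE-like and 119.8 CPM in cycling GABAergic cells of WT, and between 48.2 and 110.0 CPM in the same groups of cKO. Neighbouring groups overlapped in their intervals all along the order in both libraries, while the lowest and the highest did not. The UMIs of Dlx5 per UMI of Dlx6 were 4.98 in WT OB-like cells (4.12 to 6.07) and 4.39 in cKO, and 1.18 (0.827 to 1.70) and 1.63 in iSPN-like cells. Projection neuron-like cells had 2.19 and 1.42 CPM of Dlx6.

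Dlx6os1, the antisense transcript, spread more widely over the 7 GABAergic groups than Dlx6, the gene that it spans. It was highest in OB-like cells, at 870.4 CPM in WT (827 to 915, 1529 UMIs) and 595 CPM in cKO (547 to 646, 567 UMIs), and this was the top level in each library with no overlap with the next group. CGE-like cells had 453 CPM in WT and 262 in cKO, cycling GABAergic cells 449 and 273, and MGE-like cells 173 and 107. It was lowest in the striatal groups, with 81.7 and 37.1 CPM in iSPN-like and 59.5 and 33.5 CPM in dSPN-like cells. The UMIs of Dlx6os1 per UMI of Dlx6 thus ran from 0.817 in iSPN-like cells to 11.8 in OB-like cells of WT, and from 0.415 to 7.56 in the same groups of cKO. In single cells of WT, Dlx6 was detected in 13.9% of the non-cycling cells with Dlx6os1 and in 15.6% of those without it, but in 31.0% and 20.6% of the cycling GABAergic cells. In cKO it was more frequent beside Dlx6os1 in both, at 15.8% against 11.1% of non-cycling and 31.8% against 16.3% of cycling cells.

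Sp9 was highest in OB-like and lowest in dSPN-like cells, and it set the striatal groups apart. It stood at 725 and 762 CPM in OB-like and 551 and 630.2 CPM in cycling GABAergic cells of WT and cKO. Cells without a subtype had 415 and 436 CPM, MGE-like cells 358 and 246 CPM and iSPN-like cells 343 and 353 CPM, so the iSPN-like level lay in the middle of the order. The dSPN-like cells had 11.9 and 9.58 CPM, from 7 and 6 UMIs (intervals 4.79 to 24.5 and 3.52 to 20.9), beside 8.62 and 2.88 CPM in projection neuron-like cells of the same libraries. A UMI of Sp9 was present in 48.6% and 50% of thinned iSPN-like cells and in 2.04% and 2.08% of dSPN-like cells. Sp9 was not among the markers that named these cells. The UMIs of Sp9 per UMI of Dlx2 were 5.42 in WT (3.82 to 7.88) and 3.38 in cKO iSPN-like cells (2.43 to 4.76), the highest of the 7 groups, against 0.399 and 0.277 in CGE-like cells.

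**Figure D2:**
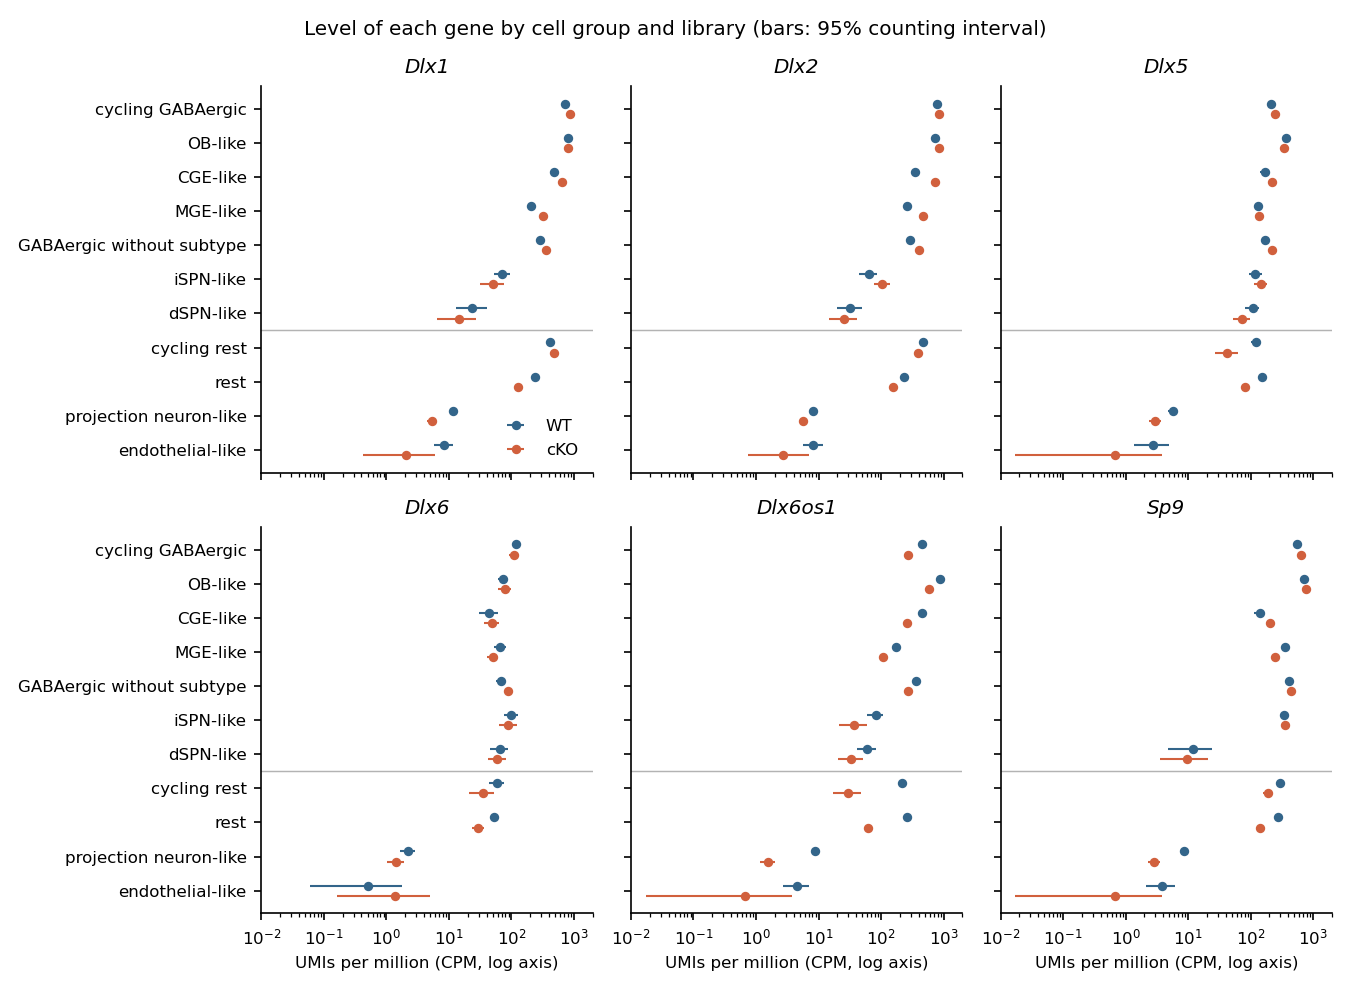
Level of each of the 6 genes (CPM, log axis) in the 7 GABAergic groups, above the grey line, and in 4 other cell groups, below it. Points are the summed UMIs of a group in WT (blue) or cKO (orange) and bars are 95% Poisson intervals. Dlx1, Dlx2 and Sp9 spread from 804, 732 and 725 CPM in WT OB-like cells to 23.8, 32.3 and 11.9 CPM in dSPN-like cells, and Dlx6 stays between 44.1 and 119.8 CPM in the 7 WT groups.

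**Figure D3:**
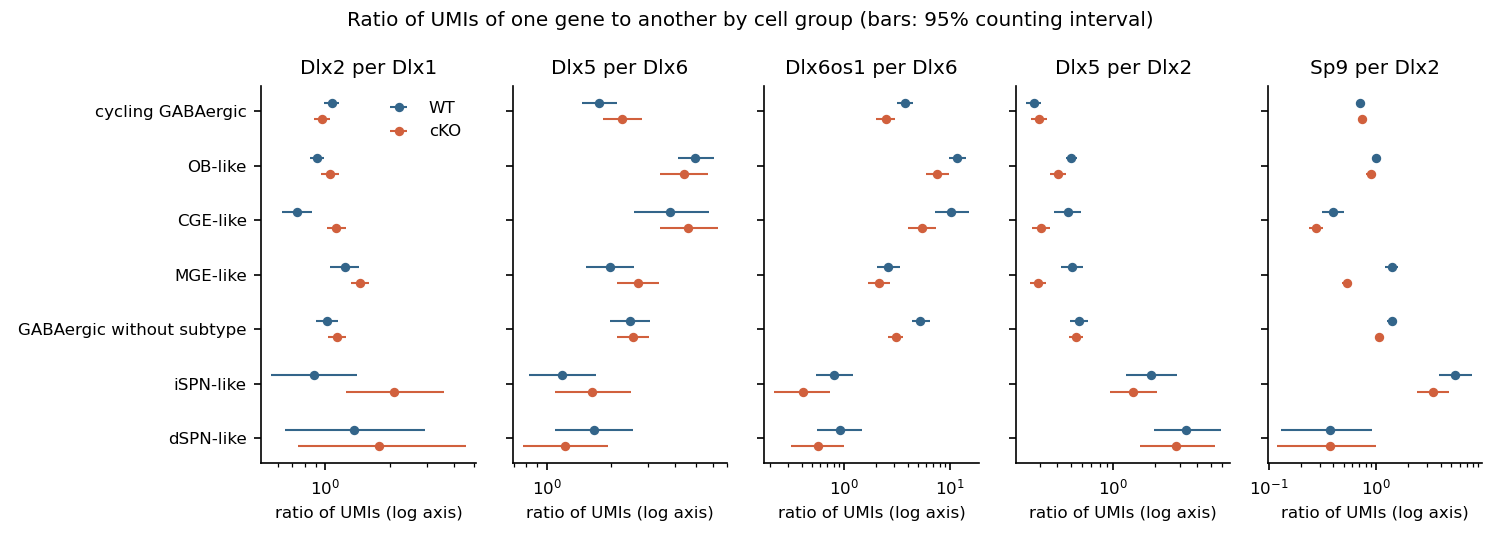
UMIs of one gene per UMI of another (log axis) in the 7 GABAergic groups of WT and cKO, with 95% intervals. Dlx6os1 per Dlx6 runs from 0.817 in iSPN-like to 11.8 in OB-like cells of WT. Dlx5 per Dlx2 is highest in the striatal groups, whose intervals overlap, and Sp9 per Dlx2 in iSPN-like cells.

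Dividing GABAergic cells carried more of the early pair and of Dlx6 than non-cycling GABAergic cells in both libraries. In WT, Dlx1 was 728 CPM in cycling and 384 CPM in non-cycling cells, 1.90-fold higher, and Dlx2 was 778 and 362 CPM, 2.15-fold higher. In cKO the folds were 2.21 for Dlx1 and 1.78 for Dlx2. Dlx6 was 1.73-fold higher in cycling cells in WT and 1.63-fold in cKO. Sp9 was 551 CPM in cycling and 412 CPM in non-cycling cells of WT, 1.34-fold higher, and 1.81-fold higher in cKO. The non-cycling cells mix groups with unlike levels, in unlike numbers between the libraries. Beside OB-like cells alone, Dlx1 and Dlx2 of cycling cells overlapped in their intervals in both libraries. Sp9 was lower in cycling cells, at 551 against 725 CPM in WT and 630 against 762 in cKO. Dlx6 stood at 119.8 against 74.0 CPM in WT and 110.0 against 78.7 in cKO.

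The remaining pair stayed closer to level. Dlx5 was 1.04-fold higher in WT (log2 0.06, interval −0.13 to 0.23) and 1.27-fold higher in cKO (log2 0.35, 0.16 to 0.53), and Dlx6os1 was 1.08-fold and 1.20-fold higher. At the 1.5-fold threshold this made 3 of 6 members higher in cycling cells in WT and 4 of 6 in cKO, where 17.9% of all genes with at least 50 UMIs were higher by that fold in WT and 17.9% in cKO. As a mean over the CPM of single cells, Dlx1 in WT and Dlx2 in cKO came just under the threshold, at 0.58 each on the log2 scale, Sp9 in cKO was at 0.53 with a stricter filter on cells and Dlx6 in cKO was at 0.58 with a gate of 4 Gad UMIs. The same filter put Dlx5 in cKO above the threshold, at 0.64, and the same gate Sp9 in WT, at 0.79. Gad1, by contrast, was lower in cycling cells, by 1.68 on the log2 scale in WT (−1.68) and by 0.68 in cKO (−0.68), while Gad2 differed by −0.20 and 0.03. Both Gad genes set the gate for GABAergic cells, so their levels within it are a description. Cycling GABAergic cells were deeper, with a median of 9270 and 11976 UMIs against 4861 and 5525 in non-cycling cells, and the part of depth in the shares and levels was not tested.

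**Figure D4:**
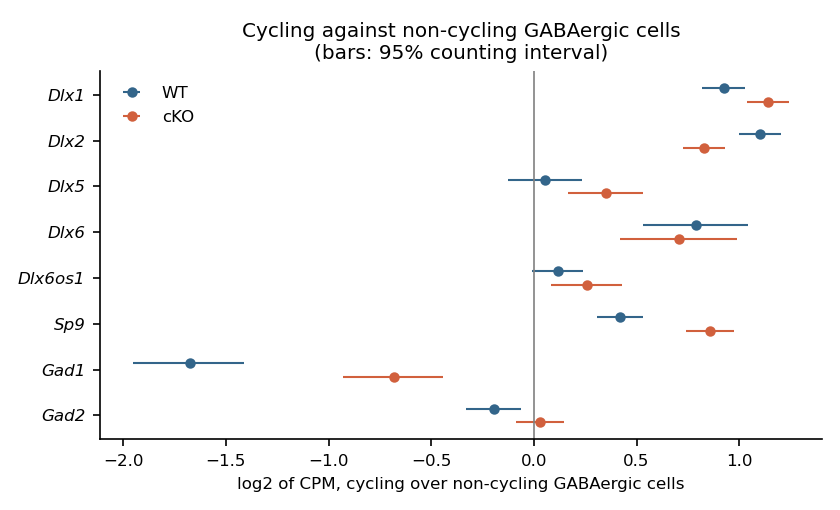
Log2 ratio of CPM in cycling over non-cycling GABAergic cells for the 6 members and for Gad1 and Gad2, in WT (blue) and cKO (orange), with 95% intervals. Dlx1 and Dlx2 lie at 0.92 and 1.10 in WT and at 1.14 and 0.83 in cKO, and Gad1 lies at −1.68 and −0.68.

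GABAergic cells were 152 of the 575 cycling WT cells, a share of 26.4% (22.9% to 30.2%), and 94 of the 331 cycling cKO cells, 28.4% (23.6% to 33.6%). The members were also present in dividing cells that failed the Gad gate. Of the cycling cells left after all classes had been named there were 107 in WT and 49 in cKO. At least 1 member was detected in 71.3% of the 101 WT cells and in 45.7% of the 46 cKO cells that were deep enough to be thinned. All cells of this kind carried 414 and 474 CPM of Dlx1 and 471 and 393 CPM of Dlx2, with 28 and 9 UMIs of Gad2. They also held Gsx2, which acts upstream of the Dlx genes in ventral progenitors, at 52.7 CPM in WT and 95.1 CPM in cKO. Of the named dividing classes outside the gate, the cycling glial cells had a member in 9.38% and 3.06%, those with Eomes or projection neuron markers in 14.5% and 22.2% and those like oligodendrocyte precursors in 13.2% and 29.2% (7 of 24 cells in cKO), beside 5.99% and 3.49% of projection neuron-like cells.

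In the dividing cells of no class, Dlx5, Dlx6, Dlx6os1 and Sp9 were lower in cKO past 1.5-fold, and the early pair was not. Dlx6os1 stood at 220.0 CPM in WT and 29.4 CPM in cKO (217 and 17 UMIs, log2 −2.90, interval −3.71 to −2.19), and Dlx5 had 120 and 24 UMIs (log2 −1.55, −2.25 to −0.91). Sp9 differed by −0.61 (−0.93 to −0.28) and Dlx6 by −0.74 from 57 and 20 UMIs, with an interval that includes 0 (−1.55 to 0.016). Dlx1 differed by 0.20 (−0.03 to 0.42) and Dlx2 by −0.26 (−0.50 to −0.03). That made 4 of 6 members lower past 1.5-fold, where 18.6% of all 5035 genes tested were lower and 16.5% higher. The comparison rests on 107 and 49 cells. The named dividing classes outside the gate differed in direction, with the sum of the members higher in cKO by 1.51 in those like oligodendrocyte precursors and by 0.76 in those with Eomes or projection neuron markers, and Sp9 by 1.56 and 0.84. In cycling glial cells the sum was −2.47.

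Between the genotypes, the summed level of the 6 genes in all GABAergic cells differed little, with 16889 UMIs in WT and 16301 in cKO (log2 ratio of cKO over WT −0.10, interval −0.13 to −0.07), and TMM scaling turned this sum to 0.06. By group the sum differed by 0.36 in CGE-like, 0.14 in MGE-like, 0.07 in cycling GABAergic, 0.0035 in iSPN-like, −0.05 in OB-like and −0.48 in dSPN-like cells and by 0.15 in those without a subtype. The pooled value mixes these groups in unlike numbers, since OB-like cells were 366 and 171 and MGE-like cells 161 and 268. In the same pool the summed glial markers were 306 CPM in WT and 182 in cKO (6 of 6 detected in each) and the mitosis markers 1190.3 and 745, and their part was not tested. TMM factors shift every log2 ratio of cKO over WT by 0.15 in these cells, by 0.16 in MGE-like cells, 0.12 in CGE-like cells and 0.16 in those without a subtype, and by less than 0.1 elsewhere. Dlx6os1 stood apart. It had 3514 UMIs in WT and 2023 in cKO, which is 1.79-fold lower in cKO (log2 −0.84, −0.92 to −0.76), and it was the single member past 1.5-fold in the pooled cells, where 26.1% of all 10957 genes tested were lower and 13.2% higher by that fold. Its place among them, with 17.7% of genes lower still, was therefore not exceptional. Of the 259 long noncoding RNA genes tested in these cells, 35.1% were lower in cKO by that fold. With TMM factors the log2 ratio of Dlx6os1 was −0.69. Dlx2 was higher by 0.27 (0.21 to 0.34), Sp9 differed by −0.17 and Dlx6 by −0.09, and Dlx1 and Dlx5 by 0.06 and −0.01. With TMM factors the ratios of Dlx5 and Dlx6 turned to 0.14 and 0.06.

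The difference of Dlx6os1 had the same sign in each of the 7 groups. The log2 ratio was −0.72 in cycling GABAergic, −0.70 in MGE-like, −0.79 in CGE-like and −0.55 in OB-like cells, −0.83 in dSPN-like and −1.14 in iSPN-like cells, and −0.45 in those without a subtype, and all 7 intervals lay below 0. The dSPN-like interval reached −0.007, beside a TMM shift of 0.079 in these cells. With a gate of 4 Gad UMIs the value was −0.27 in OB-like cells and −0.07 in those without a subtype. The striatal values rested on 35 and 21 UMIs in dSPN-like and on 49 and 17 UMIs in iSPN-like cells. Of all genes that could be tested in each group, 21.5% were lower in cKO in all 7, so this uniform sign is shared with many genes of the library. In projection neuron-like cells, which should lack the transcript, the gap was wider, with 8.88 CPM in WT and 1.55 CPM in cKO from 239 and 49 UMIs (log2 −2.52). Each other member also had fewer UMIs there in cKO. The counts were 318 and 168 for Dlx1, 219 and 181 for Dlx2, 153 and 94 for Dlx5, 59 and 45 for Dlx6 and 232 and 91 for Sp9. The cycling cells with Eomes or projection neuron markers had 33 and 28 UMIs of Dlx6os1 (−0.31, −1.09 to 0.46), and the cycling cells like oligodendrocyte precursors, with 15 and 20 UMIs of it, were higher in cKO (1.72). The part of such background in the GABAergic values was not tested.

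Dlx2 was higher in cKO past 1.5-fold in the MGE-like and CGE-like interneuron classes, and Dlx1 passed it in 1 of them. Neither rise was particular to them. Dlx2 was also higher by 0.22 in OB-like cells (0.10 to 0.35), by 0.46 in those without a subtype (0.30 to 0.62) and by 0.72 in iSPN-like cells. It differed by 0.12 in cycling GABAergic and by −0.34 in dSPN-like cells, with intervals that include 0. Dlx1 was higher by 0.27 in cycling GABAergic cells (0.15 to 0.39) and by 0.30 in those without a subtype (0.14 to 0.46). In MGE-like cells Dlx2 was higher in cKO by 0.84 (0.67 to 1.02) and Dlx1 by 0.60 (0.40 to 0.81), while Dlx6os1 was lower, which made 2 members higher and 1 lower where 16.7% of all genes were higher and 21.7% lower by 1.5-fold. With TMM factors Dlx6os1 was −0.54 in MGE-like cells, and −0.39 with a gate of 4 Gad UMIs, both under the threshold. In CGE-like cells Dlx1 differed by 0.43, under 1.5-fold (0.60 and past it with a gate of 4 Gad UMIs), and Dlx2 was higher by 1.04 (0.84 to 1.25), the largest of its 7 values, with 93.5% of all genes below it, and Dlx6os1 was lower, where 20.2% of genes were higher and 21.3% lower. In thinned CGE-like cells Dlx2 was detected in 53.6% of WT and 79.3% of cKO cells. Among MGE-like cells with an Lhx6 UMI, a restriction added after the data were seen, Dlx2 was higher by 0.88 and Dlx1 by 0.65. Over all alternatives Dlx1 lay between 0.53 and 0.80 in MGE-like cells, on either side of the 1.5-fold threshold, and Dlx2 between 0.73 and 1.12. The gate genes differed in the same groups, Gad2 by 0.69 in MGE-like and 0.79 in CGE-like cells and Gad1 by −0.69 and −0.22. Their part in the values of the members was not tested.

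Sp9 took opposite directions in these interneuron classes. It had 492 UMIs in WT and 529 in cKO MGE-like cells, 358 and 246 CPM (log2 −0.54, −0.72 to −0.36), and 105 and 217 UMIs in CGE-like cells, 140.4 and 201 CPM (log2 0.52, 0.18 to 0.87). Neither value passed 1.5-fold, and alternatives moved both to either side. The MGE-like value was 0.33 under a stricter filter on cells and −0.60, past the threshold, with at least 3 subtype markers. The CGE-like value was −0.10 when the CPM of single cells was averaged, but 0.64 with TMM factors, 0.92 with a gate of 4 Gad UMIs, 0.62 without a filter on cells and 0.61 with replication genes in the cycling rule, all past the threshold. The 6 glial markers moved with genotype in the same groups, with summed levels of 185 CPM in WT and 39.0 in cKO MGE-like cells (5 of 6 detected in each) and of 206 and 72.3 CPM in CGE-like cells (6 of 6), and their part in the differences was not tested.

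In the other 5 groups at most 2 members passed the threshold. In cycling GABAergic cells 1 member, Dlx6os1, was lower and none was higher, where 17.3% of genes were lower and 16.6% higher, and it was at −0.50 as a mean over the CPM of single cells. With the stricter filter Dlx5 and Dlx6 were higher there, by 0.69 and 0.61. In OB-like cells none of 6 passed the fold, at a background of 20.2% lower and 18.6% higher, but Dlx6os1 did with the stricter filter (−1.03), a gate of 1 Gad UMI (−0.70) and 1 subtype marker (−0.64). In GABAergic cells without subtype none of 6 did, at 24.4% lower and 16.2% higher. There Dlx2 passed with TMM factors (0.62), Dlx2, Dlx5 and Dlx6 with the stricter filter (1.15, 0.65 and 1.03), Dlx1, Dlx2 and Dlx6 with a gate of 4 Gad UMIs (0.68, 0.77 and 0.69) and Dlx6os1 with at least 3 subtype markers (−0.64) and as a mean over cells (−0.60). In dSPN-like cells 3 of the 6 reached 50 UMIs and Dlx6os1 was lower, at 14.5% lower and 14.1% higher. In iSPN-like cells Dlx6os1 was lower and Dlx2 higher by 0.72 (38 and 48 UMIs, 0.08 to 1.38, and −0.06 when the gate asked for 4 UMIs), at 17.4% lower and 15.8% higher. With at least 3 subtype markers Dlx6os1 was at −0.09 in iSPN-like cells. Alternatives also took other members past the threshold in the striatal groups. In dSPN-like cells Dlx5 was −0.81 with at least 3 subtype markers and 1.17 with the stricter filter. In iSPN-like cells Dlx5 was −0.82 with a gate of 4 Gad UMIs and 0.83 with the stricter filter. Dlx1 was −1.94 there with at least 3 subtype markers and 0.83 with the stricter filter. Read against these shares, the counts of members past the fold do not set the genes apart from the rest of the transcriptome.

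**Figure D5:**
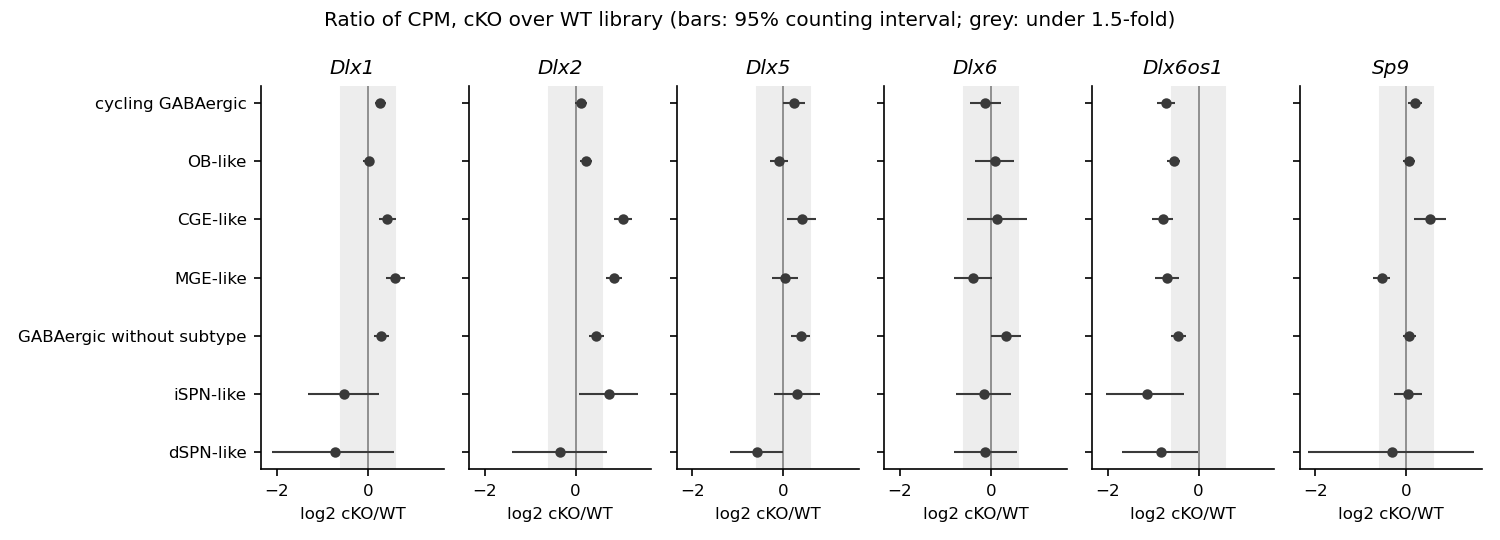
Log2 ratio of CPM in cKO over WT for each member in the 7 GABAergic groups, with 95% counting intervals, 1 library per genotype. The grey band marks differences under 1.5-fold. Dlx6os1 lies below 0 in all 7 groups, from −1.14 to −0.45, and Dlx2 lies above the band in MGE-like, CGE-like and iSPN-like cells at 0.84, 1.04 and 0.72.

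The wider pathway moved in both directions, with more genes lower than higher in cKO except in cycling GABAergic cells. Of 18 genes, namely 2 upstream of the members, 3 of their family or loci (Dlx3, Dlx4 and Dlx1as) and 13 downstream or acting beside them, 15 had at least 50 UMIs in GABAergic cells, of which 6 were lower in cKO past 1.5-fold, 2 higher and 7 neither, with a median log2 ratio of −0.29 beside −0.09 over all genes, of which 26.1% were lower and 13.2% higher. The list includes Gad1 and Gad2, which set the gate. The lower genes were Etv1 (−1.63), Nrp2 (−1.07), Sp8 (−0.98), Dlx1as (−0.94), Meis2 (−0.88) and Zfhx3 (−0.77). Sp8 and Etv1 are factors of olfactory bulb neurons and were markers of OB-like cells. Of these WT had 366 and cKO 171, or 168 and 127 with a gate of 4 UMIs. The part of these cell numbers in the ratios was not tested. Within groups, Etv1 was also lower in OB-like (−1.17), cycling GABAergic (−1.42) and MGE-like cells (−0.77) and in those without a subtype (−1.79), and Sp8 in CGE-like cells (−1.44), while Sp8 in OB-like cells was −0.38. The higher genes were Ackr3 (1.03) and Cxcr4 (0.92), the chemokine receptors that guide migrating interneurons. Of the Ackr3 UMIs, 111 of 155 in WT and 279 of 327 in cKO lay in MGE-like cells, of which cKO had more, and within these cells Ackr3 was higher by 0.68 and Cxcr4 by 0.74. The part of MGE-like cell numbers in the pooled values of both genes was not tested. In cycling GABAergic cells 12 genes could be read, and Gsx2, Gad1, Gad2 and Slc32a1, the vesicular GABA transporter, were higher while Meis2, Etv1 and Zfhx3 were lower, at 16.6% of all genes higher and 17.3% lower. By group the counts lower and higher were 7 and 3 of 13 in MGE-like (where 21.7% and 16.7% of all genes were lower and higher), 3 and 1 of 9 in CGE-like (21.3% and 20.2%) and 5 and 0 of 10 in OB-like cells (20.2% and 18.6%). They were 3 and 0 of 7 in dSPN-like (14.5% and 14.1%), 3 and 0 of 7 in iSPN-like cells (17.4% and 15.8%) and 5 and 0 of 11 in those without a subtype (24.4% and 16.2%). The median log2 ratio of the list was −0.69 in MGE-like, −0.39 in CGE-like and −0.55 in OB-like cells. It was −0.53 in dSPN-like and −0.54 in iSPN-like cells, −0.46 in those without a subtype and 0.03 in cycling GABAergic cells. Over all genes tested, the median in these groups lay between −0.036 and 0.031. Dlx3 had 0 UMIs in both libraries. Dlx4 had 0 in GABAergic cells but 21 and 9 UMIs in the dividing cells of no class, of 52 and 20 over all kept cells.

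Most UMIs of the members were inside the GABAergic gate. It held 62.9% to 67.5% of the UMIs of each member in WT and 75.6% to 85.3% in cKO. The non-cycling cells that no marker list could name, 917 in WT and 687 in cKO with a low median of 3662 and 2889 UMIs, held another 16.5% to 22.8% in WT and 7.72% to 11.97% in cKO. Of these cells 635 and 397 were deep enough to be thinned, and at least 1 member was detected in 72.0% and 49.6% of them, so cells with these genes also lay outside the gate, with the larger share in WT. In these cells Dlx6os1 had 1070 and 199 UMIs (log2 −2.10) and the sum of the members differed by −1.03. The part of the gate in the comparisons of genotypes given here was not tested.

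Across 35 points, each a cell group of 1 library with at least 30 cells, the members followed each other closely. Pearson's r of log2 levels was 0.98 for Dlx1 with Dlx2 and 0.96 for Dlx5 with Dlx6, and it was lowest for Dlx1 with Dlx6, at 0.77. Points of one library share depth and free RNA, and the values are a description. Outside the members and the lists, Nrxn3, a presynaptic adhesion protein, was the gene most like each of the 6 among 12507 genes, with r from 0.87 for Dlx1 and Sp9 to 0.95 for Dlx5. Next came Gm13889 and Arl4d for Dlx1, Arl4d and Tiam2 for Dlx2, Rgs8 and Tiam2 for Dlx5, Rgs8 and Tmem169 for Dlx6, Tiam2 and Mir124a-1hg for Dlx6os1, and Tiam2 and Arl4d for Sp9, with r between 0.82 and 0.89.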

How the data were processed

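The deposited matrices hold raw UMI counts per gene and barcode, 1 matrix for WT and 1 for cKO, from 10x Genomics libraries of P0 tissue. Per the labels' processing notes the authors used STAR, Cell Ranger 2 and Seurat with build mm9, while the file headers name software 3.0.1. The annotation, the strand setting and how barcodes were called as cells are not given in the sources used here. A matrix of both libraries combined, which keeps 100% of the WT and 94.5% of the cKO counts, served as an alternative.

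Cells with at least 500 genes and at most 10% mitochondrial UMIs were kept, and Scrublet doublets (scanpy 1.11.5) with a score above 0.25 were left out, 165 in WT and 106 in cKO. The automatic threshold had marked 165 and 0, so the fixed score was chosen after this was seen. Cell groups were set by marker UMIs as given above, with classes of glia, microglia, vascular cells and oligodendrocyte precursors from at least 3 of 6 markers. The list for the indirect pathway has 5 genes because the sixth is not listed in the files. UMIs were summed per group and library and given as CPM with exact Poisson intervals, ratios with exact conditional binomial intervals and shares with Clopper-Pearson intervals. Shares of cells were taken after thinning each cell to 2000 UMIs. Genes with at least 50 UMIs in a group over both libraries formed the background, with 1.5-fold as the threshold. No test was possible with 1 library per genotype. TMM factors (edgeR 4.0.16) were used for scaling alone. Scripts were tested on simulated data.

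Named genes were the 6 members, the markers, 20 pathway genes (of which 2 are not reported here) given by counts and by value where past 1.5-fold, and for each member the 3 genes with the highest Pearson's r of log2(CPM + 10). The members and lists were chosen with earlier results of these data known. Gene positions come from GENCODE M21 on GRCm38, a different build from mm9, and were matched by gene name and identifier only. Alternatives covered the filters, doublets, gate, cycling rule, subtype rule, matrix, scaling and thinning.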

Additional observations from a re-analysis of the deposited data

Results flagged for a closer look

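Some members had log2 ratios of cKO over WT whose intervals lay on opposite sides of 0 in different groups. None of these differences was tested, since each genotype has 1 library. Among GABAergic groups, Dlx5 was 0.41 in CGE-like and −0.58 in dSPN-like cells, a gap of 0.98. The dSPN-like interval reached −0.0015 and its value turned to 1.17 with the stricter filter on cells. The CGE-like value was 0.0031 as a mean over the CPM of single cells and 0.74 with at least 3 subtype markers. Sp9 was 0.52 in CGE-like and −0.54 in MGE-like cells, a gap of 1.06.

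The wider gaps were among the cycling cells outside the GABAergic gate. Dlx1 differed by 3.53 between the cycling cells with Eomes or projection neuron markers (1.21) and the cycling glial cells (−2.31). Between the cycling cells like oligodendrocyte precursors and the cycling glial cells, Dlx2 differed by 5.09 (2.38 and −2.70), Dlx6os1 by 5.44 (1.72 and −3.72) and Sp9 by 3.53 (1.56 and −1.97). Dlx5 differed by 2.58 between the cycling cells with Eomes or projection neuron markers and the cycling cells of no class (1.03 and −1.55). These values rest on few molecules. The glial cells of cKO held 8 UMIs of Dlx2 and 1 of Dlx6os1 in 98 cells, and the precursor-like cells of cKO held 93 and 20 in 24 cells.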

How the results depend on the processing

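The summed cKO over WT log2 ratio in GABAergic cells (−0.10) turned to 0.11 with a gate of 4 UMIs and to 0.058 with TMM factors, and was −0.14 without a filter on cells, −0.025 with at least 1000 genes and at most 5% mitochondrial UMIs (the stricter filter), −0.14 with a gate of 1 UMI and −0.21 as a mean over cells. The summed log2 ratio of cycling over non-cycling cells in WT (0.62) was 0.72 without a filter, 0.53 with the stricter filter, 0.53 and 0.88 with a gate of 1 and 4 UMIs, 0.67 with replication genes and 0.34 as a mean over cells. In cKO (0.80) it was 0.96, 0.63, 0.69 with a gate of 4 UMIs, 0.86 with at least 5 mitosis genes and 0.66 as a mean over cells. The GABAergic share of cycling cells in WT (26.4%) was 30.4% with the stricter filter and 33.2% and 13.9% with a gate of 1 and 4 UMIs, and in cKO (28.4%) it was 22.1%, 23.0% with a gate of 4 UMIs and 22.8% with replication genes. A gate of 4 UMIs turned Dlx2 in iSPN-like cells to −0.063, Sp9 in GABAergic cells to 0.050 and the sum in cycling GABAergic cells to −0.024. The stricter filter turned Dlx5 in dSPN-like cells to 1.17, Sp9 in MGE-like cells to 0.33 and Dlx6os1 in cycling over non-cycling cKO cells to −0.11, and left 277 WT and 197 cKO GABAergic cells. A mean over cells turned Sp9 in CGE-like cells to −0.10 and the sum in cells without a subtype to −0.045, and at least 3 subtype markers turned the latter to −0.0045. The cause was not tested. Dlx6os1 kept its negative sign in GABAergic cells (−0.94 to −0.61) and in the 7 groups under every alternative that gave a value, and Dlx2 stayed positive in MGE-like and CGE-like cells. The stricter filter gave no value for Dlx6os1 in either striatal group or for Sp9 in dSPN-like cells. Of the shares of cells with a UMI, recomputed with thinning to 1000 UMIs or none, 149 lay outside the interval of the share at 2000 UMIs and 19 within it. For Dlx1 in WT OB-like cells (78.3%) they were 52.1% and 93.72%. No paired analysis was possible because each genotype has 1 library. Low UMI sums limit the striatal groups.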
